A study of Homo sapiens with 9 samples.

Results

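The KEAP1-NRF2 pathway was followed in PANC-1 cells, a line from a human pancreatic tumour, through 10 genes chosen by name: the transcription factor gene NFE2L2 (which encodes NRF2), its inhibitor KEAP1, and HMOX1, NQO1, GCLC, GCLM, TXNRD1, SRXN1, OSGIN1 and G6PC3. All 10 were among the 27800 gene symbols of the table, and all 10 were among the 14144 that passed the filter on low values (3 or more of the 9 libraries at 1 TPM or above). Messenger RNA was measured by RNA sequencing in 3 libraries at day 0, 3 at day 2 and 3 at day 14 of combined nutrient and oxygen deprivation. All 9 samples carried the same growth description, a DMEM medium low in glucose, serum and amino acids, and no further treatment, so how the day 0 cells were kept was not given. The table marked all 9 as WT. There was no undeprived sample at day 2 or day 14. Deprivation, time in culture and a batch by day therefore cannot be told apart. The labels did not say whether the 3 samples of a day came from separate cultures, so the p-values cover only sample-to-sample spread, part of which may be technical. PANC-1 is a single cell line, and in bulk RNA fewer cells of a kind and less RNA per cell cannot be told apart.

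NRF2 is made continuously and, in unstressed cells, is bound by KEAP1 and handed to a CUL3 ubiquitin ligase for destruction. Oxidants and electrophiles modify KEAP1, NRF2 then accumulates, pairs with a small MAF protein and binds antioxidant response elements, a short DNA motif, in front of genes for haem degradation, quinone reduction, glutathione synthesis and the thioredoxin system. Because NRF2 is controlled largely through its stability, its messenger RNA does not measure its activity. BACH1 occupies the same elements as a repressor, and pancreatic tumours often raise the pathway. The question put to the data was which of the genes, once raised, moved back towards their day 0 level by day 14.

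Letters of the antioxidant response element core, TGACNNNGC, were looked for on both strands in RefSeq promoter windows (build GRCh38.p14) that ran from 250 bases before to 50 bases after an annotated start. The expression files named another build, hg19, so these windows give sequence context and no measurement. Of the 10 genes, 9 had a window, 14 windows in all, and HMOX1 had none. The core was present in 4 windows of 3 genes, GCLM, TXNRD1 and KEAP1, and in 13.3% of the 35116 promoter windows of the table. A match for each of these windows is printed below from 5′ to 3′ on the gene's strand, with the core, or its reverse complement, in capitals, because these are the letters through which the pathway is known to act.
GCLM: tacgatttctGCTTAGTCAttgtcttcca
KEAP1: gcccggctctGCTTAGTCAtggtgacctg
TXNRD1, first window: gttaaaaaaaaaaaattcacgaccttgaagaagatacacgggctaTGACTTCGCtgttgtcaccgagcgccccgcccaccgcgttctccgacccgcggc
TXNRD1, second window: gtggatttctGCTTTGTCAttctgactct
The GCLM stretch lies at chr1:93909446-93909474 on the minus strand, with the core 34 bases before the start of the window's transcript and inside an exon annotated from another start. KEAP1 carried the same 9 letters at chr19:10502784-10502812 on the minus strand, 31 bases before a start and also inside an exon. The TXNRD1 stretches lie on the plus strand at chr12:104215635-104215733, 99 bases before a start and outside annotated exons, and at chr12:104286920-104286948, 102 bases before another start and inside an exon. The related AP-1 core TGACTCA, which can lie within an antioxidant response element and shares its first 4 letters with the core above, was found in OSGIN1 alone of the 9 genes and in 4.95% of all windows. It is shown in capitals because OSGIN1 was one of the genes that fell after day 2.
OSGIN1: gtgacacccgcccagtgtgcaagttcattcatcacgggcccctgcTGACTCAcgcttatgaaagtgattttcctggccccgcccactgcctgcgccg
This stretch lies at chr16:83953098-83953194 on the plus strand, 97 bases before the start. A match describes letters and is no measured binding site. For NFE2L2, NQO1, GCLC, SRXN1 and G6PC3 it can be said that neither set of letters was in the windows searched.

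Values are in TPM, transcript abundance per unit of length scaled to a fixed library total, so that levels can be compared between genes but the sequencing depth is not known. Differences are on the log2(TPM + 1) scale, later minus earlier day, from 1 limma fit of all 9 libraries with Benjamini-Hochberg adjustment over the 14144 genes. A difference was called at an adjusted p under 0.05. Between the 3 day 0 libraries, replicate 2 stood apart. Its correlation with the other two was at most 0.875, against 0.972 between those, it had 11363 genes at 1 TPM or more (13016 to 13868 in the other 8 libraries), and ribosomal protein genes took 23.8% of its TPM (10.2% to 14.8% elsewhere). Symbols of microRNAs held 22.7% to 41.9% of TPM across the libraries, and their share moves the level of every other gene. The epithelial markers KRT8, KRT18, KRT19, KRT7 and EPCAM were all present at each day, summing to 3137 to 4400 TPM at day 0, 1044 to 1250 TPM at day 2 and 1150 to 1351 TPM at day 14. Of 6 fibroblast markers, 2 reached a mean of 1 TPM at day 0 and 1 at the later days, COL1A1, while DCN was at or near 0. Of 4 blood cell markers CD68 alone did, and the acinar and endothelial markers were all under 1 TPM.

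At day 2, 8 of the 10 genes rose and none fell, where 19.2% of all tested genes were called higher and 11.5% lower. KEAP1 and G6PC3 were the 2 genes not called. In the same 8 genes every day 2 library lay above every day 0 library (background 33.4%), and in 6 every day 14 library did (background 42.5%). At day 14, 6 of the 10 were still higher than at day 0 and none was lower (background 27.5% higher and 6.72% lower): NFE2L2, HMOX1, NQO1, GCLC, TXNRD1 and OSGIN1. Of all tested genes, 16.3% were called higher at both days, as these 6 were, and 2.92% were called at day 2 and not at day 14, as GCLM and SRXN1 were. Between day 14 and day 2, 2 genes fell, GCLC and OSGIN1, and none rose (background 0.205% lower and 0.212% higher), while 6 were lower and none higher at an unadjusted p under 0.05 (background 3.4% lower and 14.7% higher). Of the 8 genes that had risen, 7 had a lower estimate at day 14 than at day 2, and NFE2L2 was the exception. All day 14 libraries lay below all day 2 libraries in 7 of the 10 genes (7% of all tested genes). They were these same 7, whose lower estimate already gave the direction. A called rise with a lower later estimate was seen in 8.72% of all tested genes. Among all 2715 genes that had risen at day 2, the like share with a lower estimate was 45.4%, and 84.8% were still called higher than at day 0. The median share of their day 2 difference left at day 14 was 104% on the log2 scale (quartiles 80.4% and 124%). For the 8 risen genes of the 10 this share ran from 30.05% for SRXN1 to 78.6% for TXNRD1 and 109% for NFE2L2. The 2 comparisons share the day 2 libraries, so a day 2 value that is high by chance favours a later fall.

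**Figure D1:**
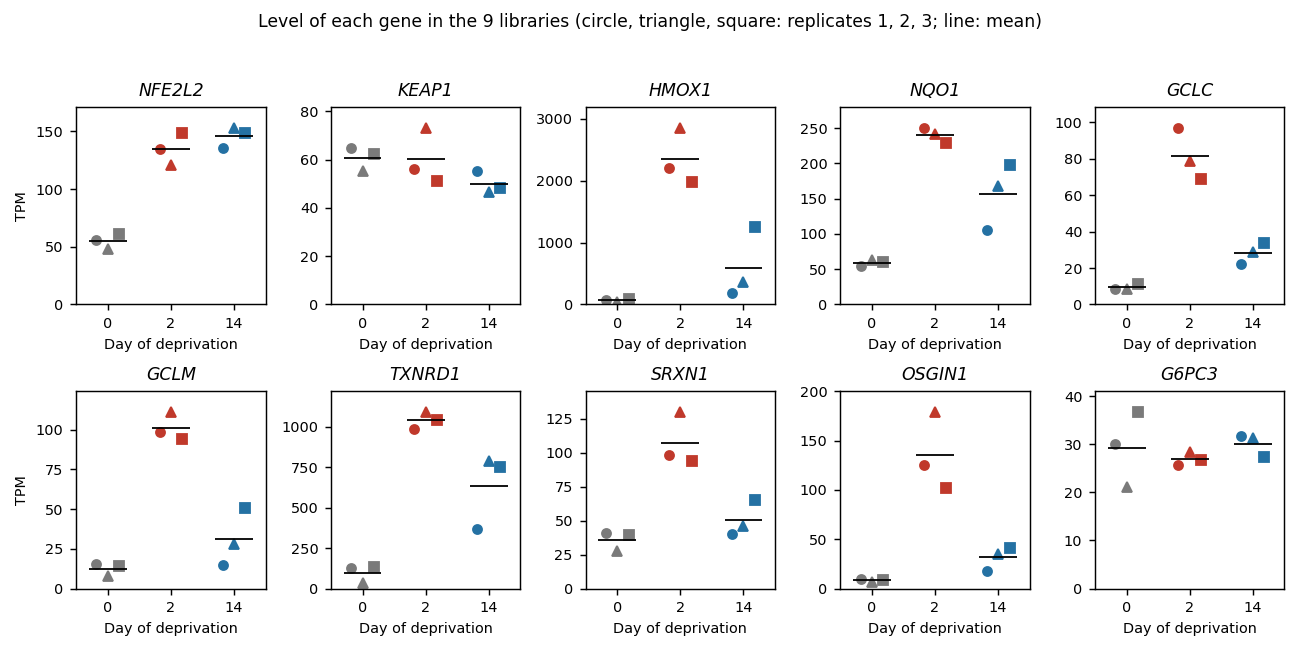
TPM of each of the 10 genes in each library (circles, triangles and squares are replicates 1, 2 and 3; horizontal lines are means of 3) against the day of deprivation, with each vertical axis starting at 0. The 3 day 2 values lie above the 3 day 0 values in 8 panels, the day 14 values lie between them without overlap in 5 of these, G6PC3 overlaps across all days, and KEAP1 at day 2 overlaps both other days.

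Of the 2 regulators NFE2L2 rose and KEAP1 was not called. NFE2L2 stood at 55.5, 48.4 and 61.5 TPM in the day 0 libraries, at 134, 121 and 149 TPM at day 2 and at 136, 153 and 148 TPM at day 14. Every day 2 and day 14 library lay above every day 0 library, and the ranges of day 2 and day 14 overlapped. The gene rose by 1.28 ± 0.16 (log2, SE) at day 2 (limma adjusted p = 0.000974) and was 1.39 ± 0.16 above day 0 at day 14 (adjusted p = 0.000772). Day 14 differed from day 2 by 0.11, with a 95% interval from -0.26 to 0.48 (adjusted p = 0.758), so this messenger was the only one of the 8 risen genes with no estimated fall after day 2. The sign of that small difference turned under median-ratio scaling (-0.15).

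KEAP1, the substrate adaptor that delivers NRF2 to the ligase, had 64.8, 55.4 and 62.3 TPM at day 0, 56.2, 73.0 and 51.0 TPM at day 2 and 55.4, 46.8 and 48.2 TPM at day 14. Day 2 overlapped both other days, and the highest day 14 value was just below the lowest day 0 value. It differed from day 0 by -0.03 at day 2 (95% interval -0.45 to 0.38, limma adjusted p = 0.909) and by -0.28 at day 14 (-0.69 to 0.14, adjusted p = 0.26). The median of all tested genes was itself above day 0, by 0.23 at day 2 and by 0.44 at day 14, so relative to that median KEAP1 stood at -0.26 and -0.72. Under median-ratio scaling, which moves the medians to 0.01 and 0.00, KEAP1 was called lower at day 14 (-0.81, adjusted p = 0.0156). Quantile normalization (-0.46, limma adjusted p = 0.024) and array weights (-0.37, limma adjusted p = 0.0189) also called KEAP1 lower at day 14. In that order these settings called 2371, 2454 and 2785 of the 14144 tested genes lower.

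HMOX1 encodes haem oxygenase-1, the inducible enzyme that opens the haem ring and releases iron, carbon monoxide and biliverdin. Its levels were 80.1, 47.7 and 81.9 TPM at day 0, 2208, 2845 and 1981 TPM at day 2 and 178, 364 and 1243 TPM at day 14. The groups did not overlap between any pair of days, and at day 2 HMOX1 had the highest level of the 10 genes. Mean TPM at day 2 was 33.5 times that of day 0, and the log2 difference of 5.07 ± 0.61 (limma adjusted p = 0.000754) was the largest of the 10 genes. At day 14 it was 2.65 ± 0.61 above day 0 (adjusted p = 0.0113). Of the day 2 rise, 23.1% was left in mean TPM and 52.3% on the log2 scale. The estimate for day 14 against day 2 was -2.42 (95% interval -3.80 to -1.04), which did not pass the adjustment (adjusted p = 0.105). The 3 day 14 libraries spanned a 6.98-fold range, the widest of the 10 genes at that day. Leaving out replicate 3 of day 14, the highest, gave 1.89 for day 14 against day 0 and -3.18 for day 14 against day 2, and leaving out replicate 1, the lowest, gave 3.29 and -1.78.

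NQO1 encodes the quinone reductase that turns quinones into hydroquinones without a radical intermediate and is widely used as a readout of NRF2. It had 55.2, 63.6 and 59.6 TPM at day 0, 250.1, 241 and 229 TPM at day 2 and 106, 168 and 198 TPM at day 14, again with no overlap between days. It rose by 2.00 ± 0.23 at day 2 (limma adjusted p = 0.000639), a 4.04-fold higher mean TPM. At day 14 it remained 1.34 ± 0.23 above day 0 (adjusted p = 0.00353), a call that was lost under median-ratio scaling (adjusted p = 0.0995). The difference of day 14 from day 2 was -0.65 (95% interval -1.18 to -0.13, adjusted p = 0.188), or -0.40 without replicate 1 of day 14. Left at day 14 was 67.2% of the log2 rise and 54.1% of the rise in mean TPM.

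GCLC and GCLM encode the catalytic and the modifier subunit of glutamate-cysteine ligase, the enzyme of the first and rate-limiting step of glutathione synthesis. GCLC had 8.70, 8.72 and 11.2 TPM at day 0, 96.7, 78.7 and 68.7 TPM at day 2 and 22.1, 28.7 and 33.5 TPM at day 14, in 3 separate ranges. It rose by 2.96 ± 0.22 at day 2 (limma adjusted p = 0.00011, 8.54-fold in mean TPM) and was still 1.46 ± 0.22 above day 0 at day 14 (adjusted p = 0.002). Between these days it fell by 1.51 (95% interval of the difference -1.999 to -1.01, adjusted p = 0.0355), which makes GCLC 1 of the 2 genes that returned in part by the rule of a rise and a later fall both being called. GCLM followed with 15.2, 7.88 and 14.0 TPM at day 0, 98.6, 111 and 94.1 TPM at day 2 and 14.9, 27.9 and 50.8 TPM at day 14. Its day 2 values lay above all others, whereas its lowest day 14 value lay inside the day 0 range. GCLM rose by 2.98 ± 0.41 at day 2 (limma adjusted p = 0.00135). Its day 14 difference from day 0 was 1.15 with a 95% interval from 0.22 to 2.09 and was not called (adjusted p = 0.0575), and without replicate 1 of day 14 it was (1.58, adjusted p = 0.017), while without replicate 3 it was 0.73 (adjusted p = 0.164). The day 14 difference from day 2 was -1.83 (95% interval -2.76 to -0.89, adjusted p = 0.0918). Of the rise in mean TPM, 21.2% was left for GCLM and 25.9% for GCLC, and of the log2 rise 38.7% and 49.2%.

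TXNRD1 encodes the cytosolic selenoenzyme that recharges thioredoxin with electrons from NADPH. It had 126, 31.3 and 132 TPM at day 0, 985, 1089.9 and 1043 TPM at day 2 and 367, 790.0 and 752 TPM at day 14, with no overlap between days. It rose by 3.67 ± 0.54 at day 2 (limma adjusted p = 0.00177) and stood 2.88 ± 0.54 above day 0 at day 14 (adjusted p = 0.0049). The value of 31.3 TPM came from the day 0 library that stood apart, and without it the differences were 2.998 and 2.21, both still called. Of the target genes, TXNRD1 kept the largest share of its log2 rise, 78.6%, with 57.2% of the rise in mean TPM left. Its difference between day 14 and day 2 was -0.79 (adjusted p = 0.482), or -0.43 without replicate 1 of day 14.

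SRXN1 encodes sulfiredoxin, which repairs overoxidised peroxiredoxins. Its levels were 40.8, 27.7 and 39.7 TPM at day 0, 98.2, 129.8 and 94.0 TPM at day 2 and 40.3, 46.2 and 65.04 TPM at day 14. The day 2 libraries were apart from both other days, and the lowest day 14 library lay just inside the day 0 range. It rose by 1.55 ± 0.25 at day 2 (limma adjusted p = 0.00258). At day 14 its difference from day 0 was 0.47 with a 95% interval from -0.09 to 1.03 (adjusted p = 0.167), the smallest of the 8 risen genes and 0.03 above the median of all tested genes. It was 0.27 without replicate 3 of day 14 and 0.29 without replicate 2 of day 0, and its sign turned under median-ratio scaling (-0.07). The day 14 difference from day 2 was -1.09 (adjusted p = 0.0923), and 30.05% of the log2 rise and 20.3% of the rise in mean TPM were left.

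OSGIN1 encodes an oxidative stress induced growth inhibitor and had the lowest mean level of the 10 genes at day 0. It had 9.71, 6.26 and 9.04 TPM at day 0, 125, 179 and 102 TPM at day 2 and 17.9, 35.3 and 41.5 TPM at day 14. The 3 days did not overlap. It rose by 3.85 ± 0.34 at day 2 (limma adjusted p = 0.000238, 16.2-fold in mean TPM) and was 1.74 ± 0.34 above day 0 at day 14 (adjusted p = 0.00621). Between these days it fell by 2.11 (95% interval of the difference -2.89 to -1.33), with an adjusted p of 0.0496 just inside the threshold. It was the second gene that returned in part, with 18.3% of the rise in mean TPM and 45.2% of the log2 rise left.

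G6PC3, the glucose-6-phosphatase catalytic subunit that most tissues carry in the endoplasmic reticulum, did not follow the others. It had 30.1, 21.1 and 36.7 TPM at day 0, 25.7, 28.5 and 26.8 TPM at day 2 and 31.8, 31.3 and 27.3 TPM at day 14, so that the ranges overlapped at all 3 days. Its differences from day 0 were -0.08 at day 2 (95% interval -0.56 to 0.40, limma adjusted p = 0.794) and 0.07 at day 14 (-0.41 to 0.55, adjusted p = 0.818). The sign at day 14 depended on the scaling. Under median-ratio scaling the difference was -0.46 and was called (adjusted p = 0.0326), so that 2 of the 10 genes were called lower at day 14 under that scaling (background 16.8%). SLC37A4, which carries glucose-6-phosphate into the endoplasmic reticulum, was the one gene of the glucose-6-phosphatase list beside it that passed the filter, at 26.1, 22.1 and 20.0 TPM at day 0, 2 and 14, and was not called at either day (-0.23 and -0.36).

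**Figure D2:**
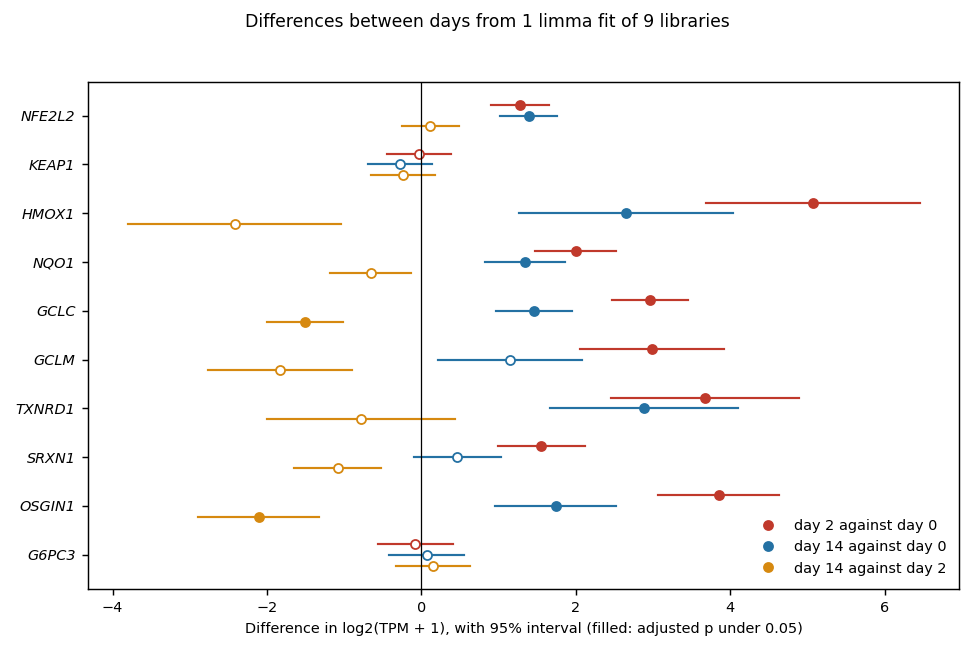
Difference in log2(TPM + 1) between days for each gene, as points with 95% intervals from 1 limma fit of 9 libraries; filled points had an adjusted p under 0.05. Red and blue points are both filled for 6 genes, and the orange points of day 14 against day 2 are filled for GCLC and OSGIN1 alone.

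By the rule that a rise and a later fall both be called, 2 genes returned in part, GCLC and OSGIN1, against 25 of 14144 tested genes (0.177%) and 0.921% of the 2715 genes that had risen. With calls at an adjusted p under 0.10, GCLM and SRXN1 joined them, 4 genes against a background of 0.622%. The 8 risen genes can be set out by where they stood at day 14. GCLC and OSGIN1 had fallen and were still above day 0. GCLM and SRXN1 were not called on either side, neither above day 0 nor below day 2. HMOX1, NQO1 and TXNRD1 were above day 0, with a lower estimate than at day 2 that was not called. NFE2L2 was above day 0 at its day 2 level.

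The count of 2 falls moved when any single library was left out. The spread was estimated over all 9 libraries, and without the day 0 replicate 2 that stood apart 5 genes were called lower at day 14 than at day 2 (background 3.86%): HMOX1 (limma adjusted p = 0.0272), GCLC (0.00603), GCLM (0.0158), SRXN1 (0.0119) and OSGIN1 (0.00847). NQO1 was then at 0.0547 and TXNRD1 at 0.0667. A fit of the day 2 and day 14 libraries alone also called 5 genes lower (background 2.69%), quantile normalization called 4 (background 1.56%) and array weights called 6 (background 4.56%). Leaving out any other single library gave 0 genes called lower. All 8 rises at day 2 were called without each library in turn (background 24.7% without day 0 replicate 2), and the 6 called higher at day 14 stayed called as well. Over all tested genes these settings called 1652 to 3472 higher at day 2 and 2518 to 4875 at day 14.

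**Figure D3:**
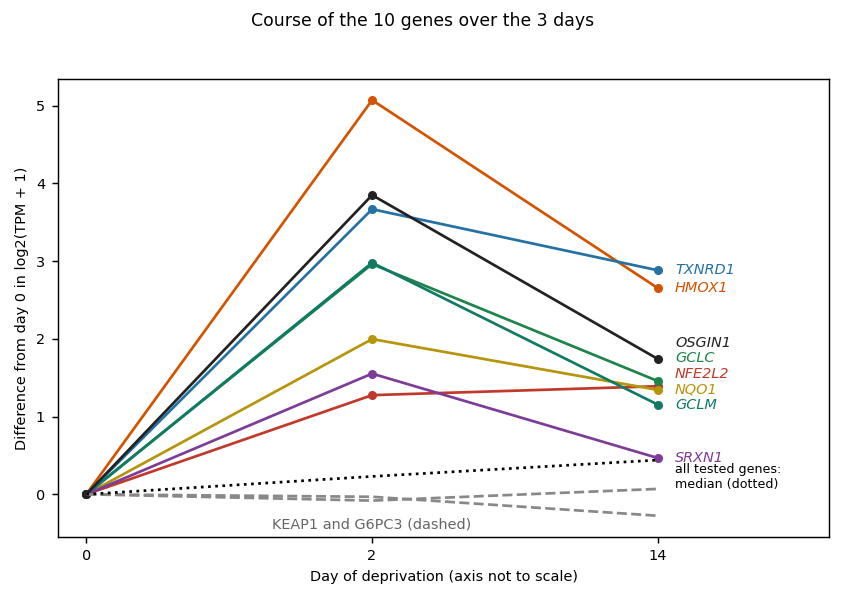
Difference from day 0 in log2(TPM + 1) for the 10 genes (solid lines, with KEAP1 and G6PC3 dashed) and the median of all tested genes (dotted), against the day, on an axis that is not to scale. The target genes reach 1.55 to 5.07 at day 2 and end between 0.47 and 2.88 at day 14, while NFE2L2 stays level and the median of all genes goes on upward to 0.44.

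The order of the levels, which TPM allows between genes, changed with the day. At day 0 the mean level was highest for TXNRD1 (96.5 ± 56.5 TPM, SD, n = 3), followed by HMOX1 (69.9 ± 19.3), KEAP1 (60.8 ± 4.86), NQO1 (59.5 ± 4.23) and NFE2L2 (55.1 ± 6.54), and the ranges of neighbours in this order overlapped. After a gap came SRXN1 (36.1 ± 7.28) and G6PC3 (29.3 ± 7.81), and after another GCLM (12.4 ± 3.93), GCLC (9.53 ± 1.42) and OSGIN1 (8.34 ± 1.83). At day 2 HMOX1 (2344 ± 448), TXNRD1 (1039 ± 52.4) and NQO1 (240.2 ± 10.6) were each clear of the next gene. OSGIN1 (135 ± 39.2), NFE2L2 (135 ± 13.7), SRXN1 (107 ± 19.6), GCLM (101 ± 8.79), GCLC (81.4 ± 14.2) and KEAP1 (60.1 ± 11.5) then overlapped from neighbour to neighbour, above G6PC3 (27.0 ± 1.39). The 2 glutamate-cysteine ligase subunits and OSGIN1, at the bottom at day 0, thus stood above KEAP1 and G6PC3 in mean level at day 2. At day 14 TXNRD1 (636 ± 234), HMOX1 (595 ± 569), NQO1 (157 ± 46.8) and NFE2L2 (146 ± 8.92) overlapped from neighbour to neighbour, clear of SRXN1 (50.5 ± 12.9) and KEAP1 (50.1 ± 4.63). OSGIN1 (31.6 ± 12.2), GCLM (31.2 ± 18.2), G6PC3 (30.1 ± 2.44) and GCLC (28.1 ± 5.72) came last and were not separated.

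The summed level of the 7 target genes (the risen genes without NFE2L2), most of it from HMOX1 and TXNRD1 at the later days, was 336, 193 and 348 TPM at day 0, 3862, 4674 and 3612 TPM at day 2 and 746, 1459.9 and 2383 TPM at day 14. The day 14 sums were spread widely. Taken gene by gene, replicate 1 of day 14 was the lowest of the 3 in 7 of 7 targets. The same library was the lowest in 27.6% of all tested genes and in 39.9% of the genes that had risen at day 2. Replicate 3 was the highest in 6 of the 7 and in 22.8% of all tested genes, whereas replicate 1 was the highest in 51.5% of all tested genes. At day 0 the lowest library was replicate 2 in 5 of 7 targets, a share equal to the 71.4% of all tested genes in which it was lowest. The share of TPM held by microRNA symbols was 27.1%, 34.2% and 35.0% in replicates 1, 2 and 3 of day 14, and its part in this order was not tested.

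The genes whose course was most like that of 3 chosen members were ranked by Pearson's r of log2(TPM + 1) over the 9 libraries among 9174 genes. These values describe 9 points that share the step between day 0 and the later days. Nearest to HMOX1 were PFKFB4, a regulator of glycolysis (r = 0.994), HILPDA, a lipid droplet protein (0.988), and the desaturase family gene FADS3 (0.985). PFKFB4 stood at 1.58, 61.0 and 18.9 TPM at day 0, 2 and 14. Nearest to NFE2L2 were the stress-induced transcription factor gene ATF3 (r = 0.999), the serine synthesis gene PSAT1 (0.993) and the mitochondrial carrier gene SLC25A36 (0.993). ATF3 stood at 1.55, 93.1 and 125 TPM, high at both later days as NFE2L2 was. Nearest to GCLM were the fatty acid desaturase gene FADS2 (r = 0.983), the porphyrin transporter gene ABCB6 (0.981) and the glycolytic gene GPI (0.980), which stood at 105, 882 and 292 TPM.

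A further 84 genes of the pathway and its surroundings were read in 8 lists, and 69 of them were tested. At day 2, 27 rose and 8 fell, which is 39.1% and 11.6% of those tested, against 19.2% and 11.5% of all tested genes. At day 14, 24 were higher and 5 lower than at day 0, or 34.8% and 7.25%, against 27.5% and 6.72% of all. The shares of lower genes were thus near the background at both days. Between day 14 and day 2 none was called by limma in either direction, with 5 higher and 13 lower at an unadjusted p under 0.05 (7.25% and 18.8%, against 14.7% and 3.4% of all tested genes). Of the 27 that rose, 20 had a lower estimate at day 14 (74.1%, against 45.4% of all genes that rose).

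Among 13 regulators and partners of NRF2, 5 rose and 1 fell at day 2, and 7 were higher and none lower at day 14. The median was 0.76 and 1.11 on the log2 scale, against 0.23 and 0.44 for all genes. The background was 19.2% higher and 11.5% lower at day 2, and 27.5% and 6.72% at day 14. MAFF and MAFK, small MAF partners, led: MAFF stood at 7.93, 100.4 and 107 TPM and MAFK at 60.8, 241 and 255 TPM at day 0, 2 and 14. The repressor gene BACH1 rose to 12.2 TPM at day 2, against 3.68 TPM at day 0, by 1.57 (limma adjusted p = 0.00448), and was 2.08 above day 0 at day 14 (18.0 TPM, adjusted p = 0.00146). SQSTM1, the autophagy receptor that can pull KEAP1 away from NRF2, stood at 342, 1245 and 814 TPM and was called higher at both days (1.86 and 1.25). MAFG differed by 1.11 at day 2, which was not called (adjusted p = 0.0761), and was called at day 14 (1.28, adjusted p = 0.0445), though not when any 1 of the day 2 or day 14 libraries was left out (0.0649 to 0.119). CUL3, the ligase scaffold, stood at 18.3, 17.5 and 18.2 TPM and was not called, with a sign that turned with the scaling. DPP3, a KEAP1-binding protein, fell by 1.34 at day 2 (adjusted p = 0.012). Leaving out any 1 of the day 14 libraries took the count of regulators called higher at day 14 to 4. It also took the count over all tested genes from 3890 to 2606, 2518 and 2602 (without replicates 1, 2 and 3).

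The 11 tested genes of cystine uptake and glutathione split. At day 2, 5 rose and 1 fell, and at day 14, 4 were higher and 2 lower (median 0.24 and -0.13). The medians of all tested genes were 0.23 and 0.44, and their shares called higher were 19.2% and 27.5% (lower 11.5% and 6.72%). SLC7A11, the cystine carrier and a known NRF2 target, stood at 2.04, 42.4 and 20.5 TPM and rose by 3.86 (limma adjusted p = 0.000172), with 2.78 at day 14. CTH, which makes cysteine from cystathionine, rose by 2.91 at day 2 and CHAC1, which degrades glutathione, was 2.65 above day 0 at day 14. GPX1, the main cytosolic glutathione peroxidase, fell to 52.9 TPM at day 2, against 236 TPM at day 0 (-2.06, adjusted p = 0.00231), and was -1.28 from day 0 at day 14. Without replicate 2 or replicate 3 of day 14 that last difference was not called (adjusted p = 0.0594 and 0.056). The day 0 libraries of GPX1 were at 169, 360 and 180 TPM, the highest being replicate 2, which stood apart. GLRX, glutaredoxin, was lower at day 14 (-1.18, adjusted p = 0.0197), and not called without replicate 1 or 2 of day 14 (0.0671 and 0.0544).

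Of 12 other genes of the thioredoxin system, 3 rose and 3 fell at day 2, and 3 were higher and none lower at day 14 (median -0.38 and -0.10), so the counts of higher genes were near the 19.2% and 27.5% of all tested genes. Of all tested genes 11.5% and 6.72% were called lower, and their medians were 0.23 and 0.44. TXNIP, the thioredoxin inhibitor, stood at 0.9502, 30.1 and 59.0 TPM, and SESN2, a stress-induced sestrin, at 4.95, 75.4 and 81.1 TPM. Both were called higher at both days. The day 14 libraries of TXNIP spanned a 13.6-fold range, at 7.46, 101.5 and 68.1 TPM. The peroxiredoxin genes PRDX3 and PRDX6, whose products clear peroxides with electrons from thioredoxin or glutathione, fell by 0.84 each at day 2. The other peroxiredoxins, named here after their values were seen, differed. PRDX4 was also called lower (-0.66, limma adjusted p = 0.0437). PRDX2 rose from 24.9 to 77.9 TPM (1.61, adjusted p = 0.000595) and was still called higher at day 14 (0.93, adjusted p = 0.00593). PRDX1 and PRDX5 were not called at either day. Leaving out any 1 of the day 2 libraries took the 3 falls to 1, and the falls of all tested genes from 1633 to 945, 1224 and 960. PRDX3 was among those lost (limma adjusted p = 0.0673 to 0.0859), as it was under median-ratio scaling (0.0613). TXN, thioredoxin itself and the substrate of the TXNRD1 enzyme, stood at 416, 226 and 239 TPM and was not called at day 2 (adjusted p = 0.221) or day 14 (adjusted p = 0.255). Its day 0 libraries were at 264, 747 and 239 TPM, the highest being replicate 2, which stood apart.

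NADPH feeds both glutathione reductase and thioredoxin reductase, and 5 of 7 genes of its supply rose at day 2 with none lower (median 1.54). For all tested genes the share called higher was 19.2% and the median 0.23. At day 14, 2 were higher and none lower (median 0.56, against 0.44 for all tested genes). That count of 2 is near the 27.5% of all tested genes called higher. H6PD, which makes NADPH inside the endoplasmic reticulum, stood at 4.28, 21.7 and 18.9 TPM and was called higher at both days. The malic enzyme gene ME1 stood at 11.9, 54.7 and 19.2 TPM. It rose by 2.12 at day 2 (limma adjusted p = 0.00208), and its day 14 difference of 0.56 was not called (adjusted p = 0.197). IDH1, the cytosolic isocitrate dehydrogenase, was 1.53 above day 0 at day 14 (adjusted p = 0.00151), and not called under median-ratio scaling (adjusted p = 0.0533).

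Of 22 other NRF2 targets, 14 were tested. At day 2, 8 rose and none fell, and at day 14, 6 were higher and 1 lower (median 1.66 and 0.83). For all tested genes the medians were 0.23 and 0.44, with 19.2% called higher at day 2 and 27.5% at day 14 (lower 11.5% and 6.72%). ABHD4, a lipase, stood at 1.28, 19.6 and 20.8 TPM, and ABCC3, an exporter of conjugates, at 21.2, 73.4 and 65.2 TPM. Both were called higher at both days, ABCC3 not without replicate 2 of day 14 (adjusted p = 0.0572 at day 14). CES1, a carboxylesterase, was lower at day 14 (-2.27, limma adjusted p = 0.00295). PIR, named here after its values were seen, stood at 13.9, 50.2 and 15.1 TPM, so that its rise of 1.79 at day 2 (adjusted p = 0.00802) was followed by a day 14 difference from day 0 of -0.01 (adjusted p = 0.981). The counts for FTL, FTH1, TRIM16 and TRIM16L are uncertain, since these genes have near-identical copies. The 6 called higher at day 14 became 2 without replicate 2 of day 14, and 3 without replicate 3 or under median-ratio scaling. Over all tested genes the calls higher at day 14 also went down, from 3890 of 14144. They numbered 2518 of 13978, 2602 of 13945 and 2372 of 14144 in these settings.

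Beside HMOX1, the 8 genes of haem handling did not move one way. At day 2, 1 rose and 2 fell, and at day 14, 2 were higher and 1 lower (median -0.06 and 0.09). With 8 genes, these counts of higher genes are near the 19.2% at day 2 and 27.5% at day 14 of all tested genes. The shares of all tested genes called lower were 11.5% and 6.72%, and their medians 0.23 and 0.44. HMOX2, the constitutive haem oxygenase, fell to 26.3 TPM at day 2, against 57.1 TPM at day 0 (-1.07, limma adjusted p = 0.0218), and its day 14 level of 42.9 TPM was not called (-0.41, adjusted p = 0.286). BLVRA, which turns biliverdin into bilirubin, stood at 108, 40.8 and 38.5 TPM and was called lower at both days. Its day 0 libraries were at 75.7, 171 and 77.1 TPM, the highest being replicate 2, which stood apart. FECH, which inserts iron into haem, rose by 1.35 at day 2 and was 0.77 above day 0 at day 14, a call lost without replicate 3 of day 14 (limma adjusted p = 0.0516) and under median-ratio scaling (0.149). The haem carrier gene SLC48A1 was called at day 14 (1.196, adjusted p = 0.0396), but not when any 1 of the day 2 or day 14 libraries was left out (adjusted p = 0.0532 to 0.123). Both falls were lost without replicate 3 of day 2 (adjusted p = 0.0802 for HMOX2 and 0.0519 for BLVRA), HMOX2 also without replicate 1 (0.0743). Of 3 genes of superoxide and peroxide removal, SOD2, the mitochondrial superoxide dismutase, fell by 0.76 at day 2 and was lower at day 14 by a called difference of -0.51, which was not called when any 1 of the day 14 libraries was left out (adjusted p = 0.0612 to 0.102). The call was also lost without replicate 1 of day 0 (0.0778) and without replicate 1 or 3 of day 2 (0.0599 and 0.0589).

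**Figure D4:**
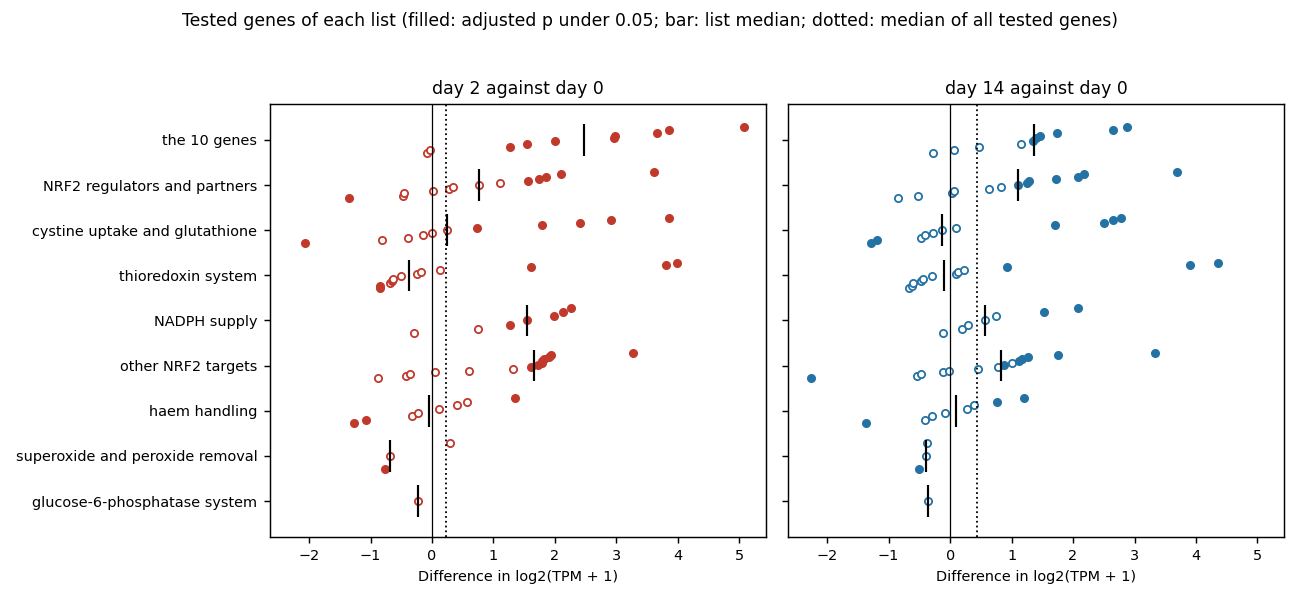
Difference from day 0 in log2(TPM + 1) for the tested genes of each list at day 2 (left) and day 14 (right); filled points had an adjusted p under 0.05, short bars are list medians and the dotted line is the median of all tested genes. The 10 genes, the NADPH supply and the other NRF2 targets have their median above 1.5 at day 2, and the thioredoxin list lies on both sides of 0.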

How the data were processed

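RNA sequencing was done on 9 PANC-1 samples, 3 each at day 0, 2 and 14. The authors deposited 1 table of TPM (transcript abundance scaled to a fixed total) per gene symbol. Salmon and the build hg19 are named in the submitters' processing notes, and version, transcript annotation, strand setting and read filters are not given in the sources used here. Depth cannot be read from TPM and no counting interval is given. A change in a few abundant entries shifts all others. Columns were tied to samples through the day and number in the column names. No nonzero value was shared between libraries.

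The 14144 genes at 1 TPM or above in 3 or more libraries were tested as log2(TPM + 1). Tests were two-sided, from limma 3.58.1 (R 4.3.3), with 3 groups and a trend on intensity in a single fit. P-values were adjusted by Benjamini-Hochberg within a comparison and called at 0.05. This scale understates changes of low genes. An exact permutation test of 3 against 3 cannot go below 0.1 and was not run. A gene was said to have returned in part where a rise at day 2 and a fall from day 2 to day 14 were both called. The share left is the day 14 difference from day 0 over that of day 2, on the log2 scale or in mean TPM as named. The fit was checked on simulated data.

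The members and lists were chosen with earlier results of these data known, so their counts are descriptions beside those of all genes. Named were all 10 members, up to 2 called rises and falls per list and comparison with a mean of at least 1 TPM, 10 list genes fixed by name (1 of which is not reported here), and the 3 genes nearest to HMOX1, NFE2L2 and GCLM with a mean of at least 5 TPM. Genes were matched to RefSeq promoter windows by symbol. Alternatives were other pseudocounts, filters, scalings and weights, no trend, a replicate block, fits of 2 days, looser calls and leaving out each library. Rescaling without microRNA symbols was added after the data had been seen. Replicate numbers were shared between days and gave no pairing.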

Additional observations from a re-analysis of the deposited data

How the results depend on the processing

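The 8 rises at day 2 and the count of 6 at day 14 held within 1.5 times under every alternative run. Calls higher over all tested genes ran from 1652 to 4313 at day 2 and from 2349 to 5670 at day 14. Both upper ends came with array weights. NQO1 left the 6 under median-ratio scaling, GCLM joined without day 14 replicate 1 and with array weights, and SRXN1 with array weights. Members called lower at day 14 than at day 2, and with them those returned in part, numbered 0 in some settings. Among these were pseudocount 0.1 (3 of all tested genes called lower), the replicate block (1) and no microRNA symbols (12). The members numbered 1 without a filter (27 of all tested genes), with a mean of at least 5 TPM (13) and without trend (24). They numbered 4 under quantile normalization (221), 5 in a fit of 2 days (381) and 6 with array weights (645). With 1 library left out they numbered 0 to 5 (0 to 543 of all tested genes). At an adjusted p under 0.10, 4 returned. GCLC was called as returned in 9 of 20 alternatives and OSGIN1 in 6. Members lower at day 14 than at day 0 numbered 2 under median-ratio scaling (2371 of all tested genes). KEAP1 alone was lower under quantile normalization (2454 of all tested genes) and with array weights (2785). Array weights also called 1 member (G6PC3) lower at day 2, with 4662 of all tested genes. The replicate numbers gave no pairing: deviations of same-numbered libraries correlated at -0.08 to 0.02, with 0 of 9 over 0.1. Signs turned for differences near 0. At day 14 against day 0, CUL3 was -0.46 (median-ratio), -0.37 (quantile), -0.22 (weights) and -0.28 to 0.25 (1 library left out). G6PC3 was -0.46, -0.27, -0.22 and -0.14 to 0.24 in these. SRXN1 was -0.068 (median-ratio), and TXN 0.029 (weights). At day 2 against day 0, CUL3 was -0.0036 (pseudocount 5), -0.25, -0.17, -0.33 and, with 1 library left out, -0.32 to 0.20. KEAP1 was 0.048 (quantile), 0.071 (no microRNA symbols) and -0.18 to 0.076, G6PC3 was 0.019 (no microRNA symbols) and -0.29 to 0.093, and SLC48A1 was -0.10 (weights) and -0.047 to 0.63. Between day 14 and day 2, NFE2L2 was -0.15 (median-ratio), -0.087 (quantile) and -0.033 (no microRNA symbols), and G6PC3 was -0.11 and -0.12 under both scalings. The cause of these changes was not tested.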
